A study of Mus musculus with 20 samples.

Results

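The NRF2 and glutathione defence set comprised 10 genes, Nqo1, Hmox1, Gclm, Gclc, Txnrd1, Srxn1, Mgst1, Mgst3, Gsta4 and Gstm1, of 12393 genes with a probe set of their own on the array. They were represented by 21 of 22690 probe sets. The genes were chosen by name after their genotype differences in these arrays were known, so the differences between genotypes are described here and not tested. What was tested is how the genes varied between embryos of 1 genotype, and whether Nqo1 and Mgst3 varied with the other 8. A choice by clear genotype differences can favour little spread between embryos of 1 genotype. The tests between embryos are therefore not fully independent of the choice.

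The arrays measured RNA of primary mouse embryonic fibroblasts, connective tissue cells grown from embryos at 13.5 days post coitum. The wild type group had 3 embryos with 3, 3 and 4 cultures. The E2F4 null group had 5 embryos with 2 cultures each; E2F4 is a transcription factor that binds cell cycle promoters together with pocket proteins. The labels name no strain, sex, passage, litter, structure of the null allele, agent or treatment for either group. Cultures of 1 embryo share their source, so values are given as embryo means and the embryo is the unit in the main comparison of genotypes.

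NRF2, encoded by Nfe2l2, is a transcription factor that KEAP1 holds at low levels until oxidants or electrophiles modify KEAP1. It then pairs with small MAF proteins at antioxidant response elements, where BACH1 can compete with it. Its known targets reduce quinones, degrade haem, make glutathione, keep thioredoxin reduced and attach glutathione to reactive compounds.

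The 20 arrays shared a trimmed mean of 500.2, and their medians ran from 135 to 146. Arrays of 1 embryo correlated across genes at 0.988 to 0.994, and arrays of different embryos at 0.948 to 0.991. The targeted gene, E2f4, had embryo means of 209, 212 and 221 in wild type embryos and of 157, 167, 156, 155 and 196 in null embryos. The groups did not overlap, with a null mean at 77.6% of wild type. A probe set outside the removed part of the gene checks nothing, and the labels do not say which part that was. All 14 fibroblast markers passed the signal filter, with sums of 111472 to 112351 in wild type embryos and 99000 to 115484 in null embryos. Single markers, named after their values were seen, differed more. Pdgfra was 852, 191 and 1200 in wild type embryos and 197, 339, 908, 1110 and 1368 in null embryos. Lum and Dcn were likewise lowest in wild type embryo 2 and null embryos 1 and 2, while Col1a1, Vim and Fn1 were not. Of 6 skeletal muscle markers 3 passed the filter, Acta1, Tnnt2 and Des, while Myog, Myod1 and Myh3 had signals of at most 33.2. The muscle sum was 878, 4298 and 538 in wild type embryos 1 to 3, and 1761, 3581, 516, 451 and 445 in null embryos 1 to 5. Wild type embryo 2 and null embryos 1 and 2 therefore stood apart, with Acta1, the actin of skeletal muscle fibres, making up most of the sum. None of the 6 muscle markers was listed at 0.

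Start regions of 7 of the 10 genes were found among the RefSeq promoter windows of GRCm38.p6, which run from 250 bases before to 50 bases after a start; Hmox1, Gclc and Gsta4 had no entry. The core of the antioxidant response element, TGACNNNGC on either strand, was searched in them, since it is the letter pattern that NRF2 targets are known for. It matched in 4 genes, Gclm, Mgst1, Srxn1 and, in 1 of its 3 windows, Txnrd1, and in 12.4% of all 32851 windows. The matches that lie before the start are shown with 16 bases on each side and the match in capitals, which here reads GCNNNGTCA, the reverse strand of the core:
Gclm chr3:122245407-122245447 (plus strand): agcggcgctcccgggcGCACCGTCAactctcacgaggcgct
Mgst1 chr6:138140455-138140495 (plus strand): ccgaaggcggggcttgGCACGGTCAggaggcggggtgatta
Txnrd1 chr10:82859098-82859138 (plus strand): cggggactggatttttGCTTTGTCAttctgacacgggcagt
These lie 134, 56 and 92 bases before the start, and the Srxn1 match lies 28 bases after its start. The 2 genes with the lowest genotype values, Nqo1 and Mgst3, are shown by the 120 bases before their starts, where the core was not matched. Capitals mark the TATA box letters TATAAA, which occur in Nqo1 at 29 bases before the start, in Gstm1 at 30 bases before its start and in 8.32% of all windows:
Nqo1 chr8:107403206-107403325 (minus strand): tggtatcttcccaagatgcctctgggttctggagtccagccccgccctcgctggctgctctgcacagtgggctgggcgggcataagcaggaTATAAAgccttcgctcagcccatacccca
Mgst3 chr1:167393842-167393961 (minus strand): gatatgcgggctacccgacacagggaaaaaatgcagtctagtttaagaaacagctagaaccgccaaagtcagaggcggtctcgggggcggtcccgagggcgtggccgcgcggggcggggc
The E2F letters TTTCCCGC or TTTGGCGC (1.56% of windows) and the xenobiotic response element core TNGCGTG (5.07%) were matched on either strand in 0 of the 7 genes' windows. A match describes letters only, and elements outside these windows were not searched.

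Of the 10 genes, Nqo1 and Mgst3 had the lowest null signal relative to wild type. Nqo1 encodes a quinone reductase that uses NADH or NADPH and lies on chromosome 8. Its signal was 527, 418 and 594 in wild type embryos and 296, 360, 331, 321 and 336 in null embryos. The highest null embryo stood below the lowest wild type embryo. The means were 513 ± 88.8 (SD, n = 3) and 329 ± 23.3 (n = 5), a null level of 64.1% of wild type and a difference of -0.61 on the log2(signal + 16) scale (SE 0.11). Here and below, a difference is null minus wild type on that scale, and its standard error comes from limma's fit. In bulk RNA of this kind, fewer cells of a type and less RNA per cell cannot be told apart.

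Mgst3, a membrane-bound enzyme of the glutathione transferase and peroxidase type, lies on chromosome 1. Its signal was 567, 546 and 549 in wild type embryos and 383, 335, 344, 402 and 416 in null embryos. The groups did not overlap, and the wild type embryos lay within a 1.04-fold range of each other. The difference was -0.54 (SE 0.09), with means of 554 ± 11.2 (SD, n = 3) and 376 ± 35.5 (n = 5). A second Mgst3 probe set had signals of 4.80 to 17.0 in all embryos, below the filter, with a difference of -0.14.

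Of the 10 genes, 3 had all null embryos below all wild type embryos (Nqo1, Mgst3 and Txnrd1), and 0 had them all above. Over all 7436 genes tested the corresponding shares were 3.71% and 2.95%. The genotype comparison across all genes with limma called 1 gene at an adjusted p under 0.05, which is 0.0134% of those tested, and it was none of the 10; 649 genes and 3 of the 10 had an unadjusted p under 0.05. Because the genes were selected on this contrast, these counts describe the set and carry no weight as a result.

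**Figure D1:**
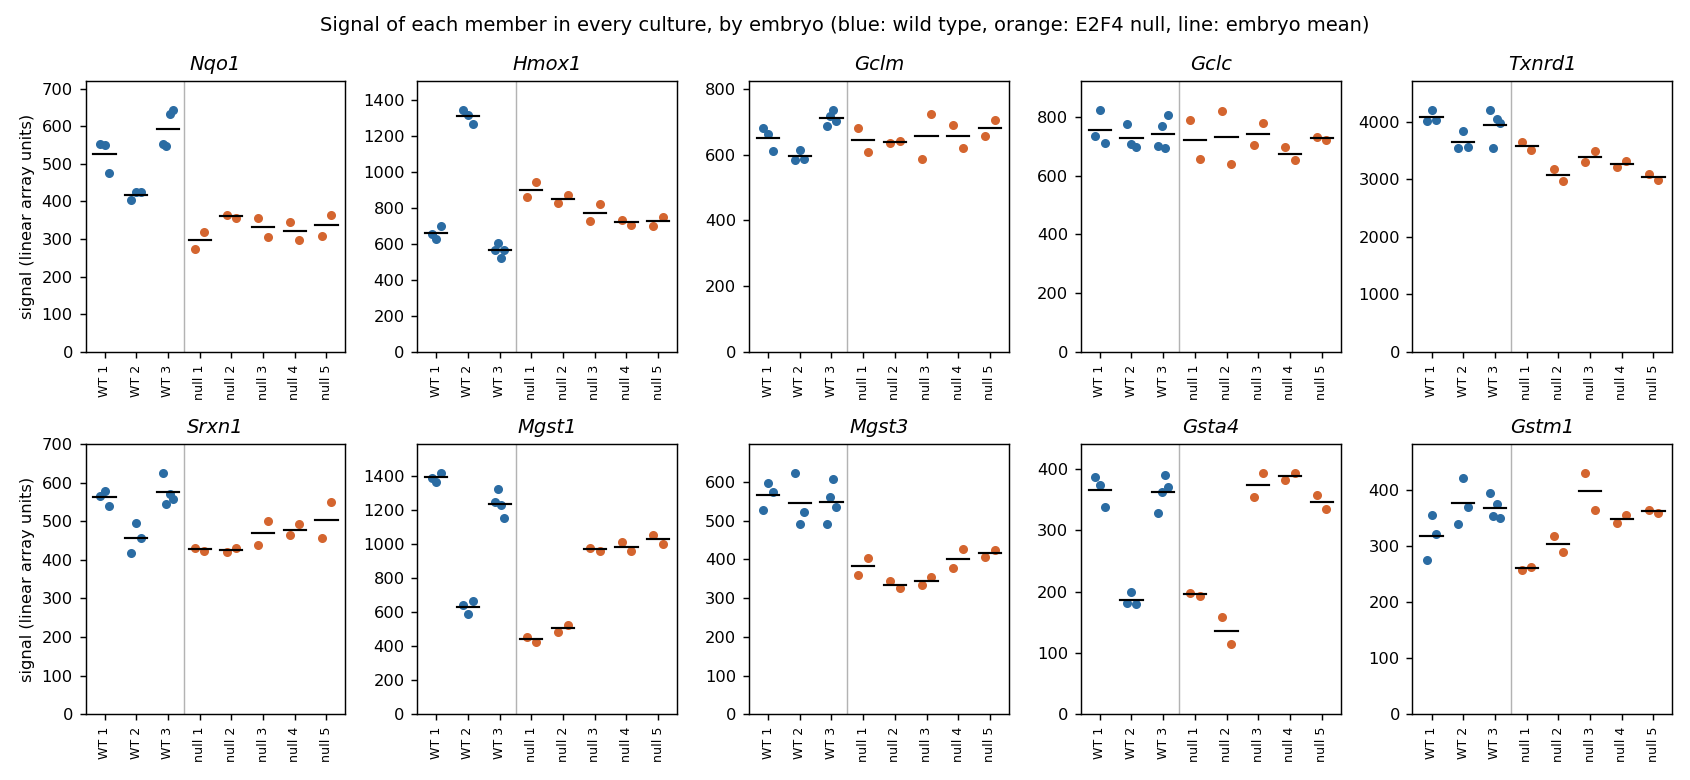
Signal of the 10 genes (linear, each panel with its own vertical axis) in every culture, by embryo, with wild type in blue, E2F4 null in orange and a line at each embryo mean. The orange lines lie below every blue line for Nqo1, Mgst3 and Txnrd1, and wild type embryo 2 stands highest for Hmox1 and lowest among wild type embryos for Mgst1 and Gsta4.

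The thioredoxin branch gave the next values. Txnrd1 encodes the cytosolic thioredoxin reductase, which returns thioredoxin to its reduced form with NADPH. Its brightest probe set gave 4085, 3649 and 3948 in wild type embryos and 3589, 3080, 3397, 3267 and 3049 in null embryos. The groups did not overlap, by a margin of 3649 to 3589. The null level was 84.1% of wild type, a difference of -0.25 (SE 0.07). The other 2 probe sets of Txnrd1 gave -0.28, with groups apart, and -0.22, with groups that overlapped.

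Srxn1 encodes sulfiredoxin, which repairs over-oxidised peroxiredoxins. Its signal was 562, 456 and 575 in wild type embryos and 427, 426, 470, 478 and 504 in null embryos. The groups overlapped, because wild type embryo 2 lay below 3 of the null embryos. The difference was -0.19 (SE 0.10), or -0.30 without wild type embryo 2, and the remaining 3 probe sets of the gene gave -0.34, -0.17 and -0.32. The last of these had embryo means of 20.3 to 51.4, near the low end of the array, and was the only one of the 4 whose groups were apart.

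The glutathione synthesis genes had nearly equal levels in both genotypes. Gclc and Gclm encode the catalytic and the modifier subunit of glutamate-cysteine ligase, the first enzyme of glutathione synthesis. Gclc signal was 757, 728 and 744 in wild type embryos and 723, 731, 742, 675 and 727 in null embryos, with groups that overlapped. The difference was -0.05 (SE 0.06), while a second Gclc probe set had the opposite sign at 0.15. Gclm gave 653, 596 and 711 against 645, 640, 657, 656 and 682, and the null embryos all lay inside the wild type range. Its difference was 0.01 (SE 0.07).

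Hmox1, the inducible haem oxygenase, lies on chromosome 8 as Nqo1 does. Its signal was 661, 1307 and 564 in wild type embryos and 900, 846, 772, 719 and 724 in null embryos. Wild type embryo 2 was the highest and wild type embryo 3 the lowest of all 8, so all null embryos lay within the wild type range. Next highest were null embryos 1 and 2, which with wild type embryo 2 had the highest muscle sums. The mean difference was 0.00 (SE 0.23), and it was 0.36 without wild type embryo 2 and -0.23 without wild type embryo 3. Macrophages, the cells that clear red cells and so degrade much haem, are a known site of Hmox1 expression. The summed signal of 14 macrophage markers was highest among wild type embryos in embryo 2 (3676 against 2391 and 2250). Among null embryos it was highest in embryo 4 (5988), where Hmox1 was lowest, and its part in the Hmox1 levels was not tested. Of these 14 markers 11 passed the filter, and the sum ranged over 2250 to 3676 in wild type and 1949 to 5988 in null embryos.

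The 3 remaining genes encode enzymes that join glutathione to electrophiles, and all had overlapping groups. Mgst1, a membrane-bound transferase, gave 1389, 632 and 1236 in wild type embryos and 439, 504, 969, 983 and 1026 in null embryos. Wild type embryo 2 and null embryos 1 and 2 were the low ones, and the other 5 lay between 969 and 1389. The difference of -0.47 was near that of Mgst3 in size, but its standard error was 0.35 against 0.09. It was -0.81 without wild type embryo 2 and -0.26 without wild type embryo 1. A second Mgst1 probe set had signals of 0.784 to 10.7 and a difference of -0.28.

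Gsta4, which acts on the lipid peroxidation product 4-hydroxynonenal, showed the same split of embryos. Its signal was 366, 187 and 363 in wild type embryos and 196, 136, 374, 388 and 346 in null embryos. The low embryos were again wild type 2 and null 1 and 2, the 3 with the highest muscle sums. The difference was -0.12 (SE 0.36), and it was -0.42 without wild type embryo 2 and 0.10 without null embryo 2. Gstm1, a cytosolic transferase of a family of close relatives, gave 317, 376 and 368 against 260, 303, 397, 348 and 362, a difference of -0.09 (SE 0.13). Its other 3 probe sets gave 0.06, 0.11 and -0.06, and 2 of the 4 are of the cross-hybridising type, so near-identical Gstm transcripts may share their signal.

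**Figure D2:**
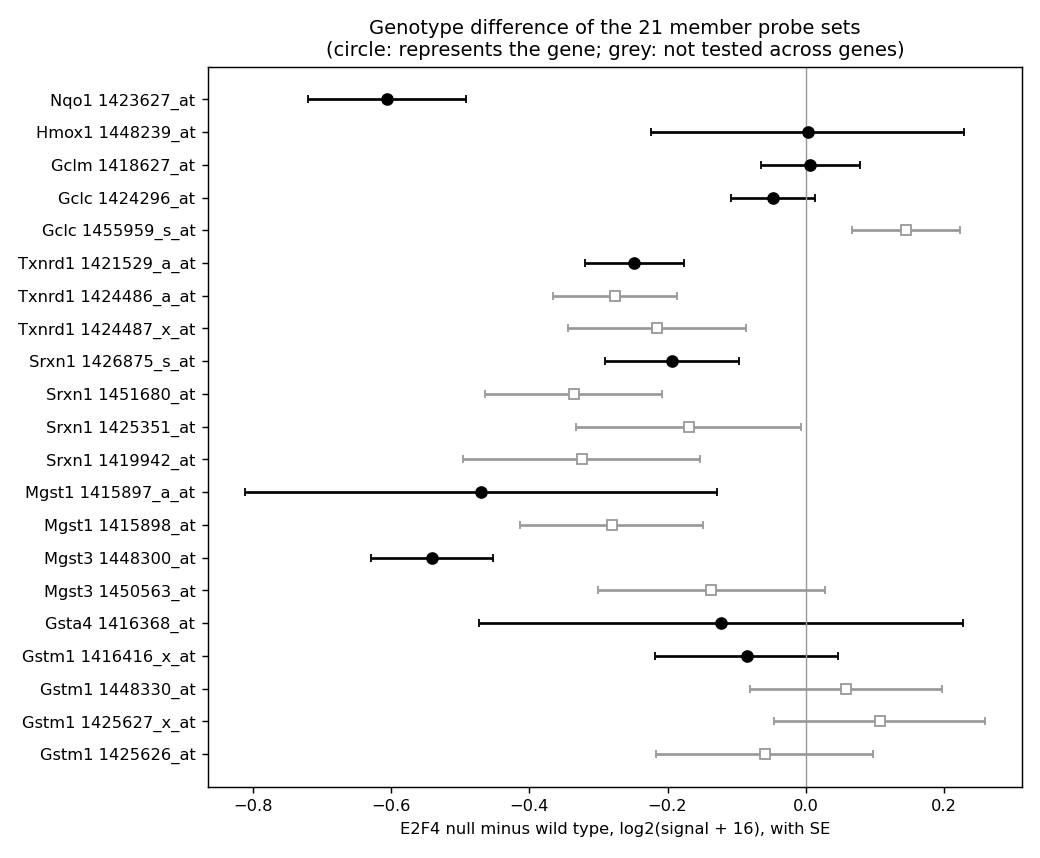
Null minus wild type difference on the log2(signal + 16) scale for the 21 probe sets, with the standard error as bars from the fit on every probe set; circles mark the probe set that represents a gene and grey squares the others. Of them 16 lie below 0, and the probe sets that represent Nqo1 and Mgst3 lie at -0.61 and -0.54.

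Taking 1 probe set per gene, 8 of the 10 genes had a difference below 0, with a median of -0.16, against 51.1% of all genes and a median of -0.0035. Among the 21 probe sets 16 were below 0. Without Nqo1 and Mgst3 the median of the other 8 was -0.10. In the order of all genes tested from the lowest difference, Nqo1 stood at percentile 0.511 and Mgst3 at percentile 0.834. The differences of Gclc, Gclm, Hmox1, Gsta4 and Gstm1 ran from -0.12 to 0.01 and those of Txnrd1, Srxn1 and Mgst1 from -0.47 to -0.19. The standard errors of Hmox1, Gsta4 and Mgst1 were 0.23 to 0.36, so for these 3 the values do not separate a difference of the size of Mgst3 from one near 0.

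The next comparison asked which genes differed between embryos of 1 genotype by more than their cultures did. In the wild type group 6 of the 10 genes passed limma's F test over cultures at an adjusted p under 0.05, against 51.4% of all genes tested, so the share was near the background. In the null group 4 of the 10 passed, against 27.8% of all genes.

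Mgst1 had the highest F values in both groups (180 with an adjusted p = 2.2e-11 in wild type, 108 with 1.1e-10 in null). Gsta4 also passed in both (F = 54.8, adjusted p = 1.7e-07; F = 51.2, adjusted p = 3.2e-08). Hmox1 passed in wild type embryos (F = 177, adjusted p = 2.5e-11) and in null embryos (F = 5.22, adjusted p = 0.023). For Mgst1 and Gsta4 the differences between embryos of 1 genotype thus exceeded the spread between cultures in each group. The Hmox1 call in null embryos was lost in a fit on the null arrays alone (adjusted p = 0.0609) and without null embryo 1 (adjusted p = 0.149).

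Nqo1 differed between the wild type embryos (F = 14.4, adjusted p = 0.00059), where its range was 1.42-fold. Between the null embryos it did not pass (F = 1.38, adjusted p = 0.421), with a range of 1.22-fold. Mgst3 passed in neither group (adjusted p = 0.844 in wild type, 0.162 in null). Both genes were chosen with their genotype difference known, so a small spread between embryos may come with the choice. Whether the spread of Nqo1 differs between the genotypes was not tested.

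Srxn1 (adjusted p = 0.0039) and Gclm (adjusted p = 0.022) passed between wild type embryos, and their adjusted p between null embryos was 0.275 and 0.925. Gstm1 passed in null embryos (adjusted p = 0.0075) and was at 0.0829 in wild type. Txnrd1 was at 0.0599 and 0.064, and Gclc at 0.868 and 0.865. Without wild type embryo 2, 1 of the 10 genes passed between wild type embryos, Hmox1 (adjusted p = 0.032), while the share of all genes went from 51.4% to 16.6%. Without null embryo 1 the null count was 2, Mgst1 and Gsta4, against 21.6% of all genes.

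**Figure D3:**
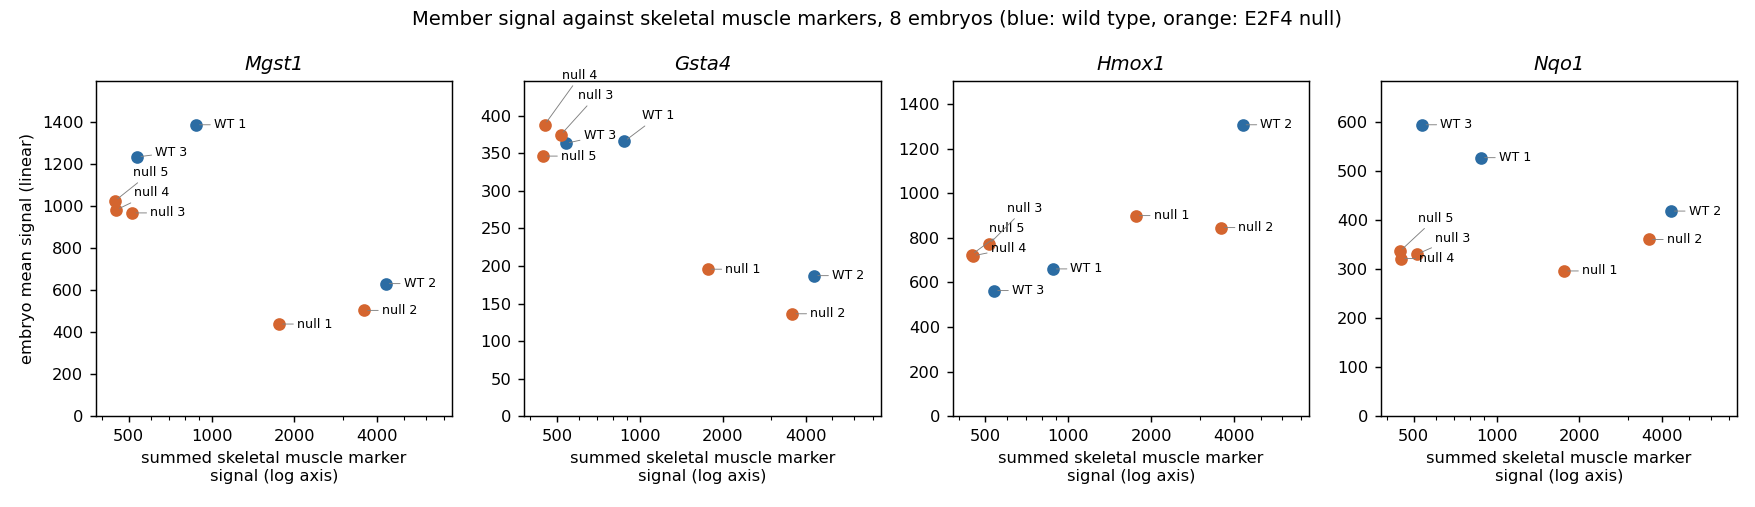
Embryo mean signal of 4 genes (linear) against the summed signal of the 6 skeletal muscle markers (log axis), 1 point per embryo. The 3 embryos on the right, wild type 2 and null 1 and 2, are the lowest for Mgst1 and Gsta4 and the highest for Hmox1. The Nqo1 points separate by colour.

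Leaving out wild type embryo 2 and null embryos 1 and 2, a choice made after the muscle sums were seen, 1 of the 10 genes passed in wild type (Hmox1, against 16.7% of all genes) and 0 in null, where 130 genes or 1.75% passed; 0 of the 10 had an unadjusted p under 0.05 there. The plot of signal against muscle markers shows Mgst1 and Gsta4 lowest and Hmox1 highest in those 3 embryos, and the Nqo1 points separated by genotype. Without these embryos the genotype difference was -0.74 for Nqo1, -0.51 for Mgst3, -0.39 for Mgst1, 0.02 for Gsta4 and 0.11 for Gstm1. The epithelial sum was also highest among null embryos in embryos 1 and 2 (787 and 695) and among wild type embryos in embryo 2 (598), with 2 of 7 markers above the filter and ranges of 351 to 598 in wild type and 458 to 787 in null. The endothelial sum was highest in the same 3 embryos (765 in wild type 2, 688 and 693 in null 1 and 2), with 2 of 7 markers above the filter. It ranged over 433 to 765 in wild type and 450 to 693 in null embryos. The part of muscle, epithelial, endothelial or fibroblast cells in these levels was not tested.

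To see whether the genes moved together once genotype was set aside, each embryo was expressed as its deviation from its genotype mean and the 45 gene pairs were correlated over the 8 embryos. By exact two-sided permutation of embryos within genotype (720 orders, smallest possible p 0.00139), 0 pairs passed after Benjamini-Hochberg adjustment over the 45, by Pearson's r or by Spearman's rho, and 8 had an unadjusted p under 0.05 for r. With this number of embryos a lone pair at the smallest p reaches an adjusted 0.0625, which is above the threshold. None of the 8 pairs held Nqo1 or Mgst3, which occur in 17 of the 45.

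Nqo1 and Mgst3 did not covary detectably over the embryos (r = -0.17, exact permutation p = 0.582, adjusted 0.845; rho = -0.12, p = 0.772). Wild type embryos 2 and 3 were the 2 farthest from the median in Nqo1. Leaving them out leaves 1 wild type embryo, which then defines its own mean, so the values without them reflect the null embryos alone; r was then -0.45. Nqo1 with Hmox1 gave r = -0.86 (exact permutation p = 0.0611, adjusted 0.281; rho = -0.69, p = 0.175), -0.25 without the same embryos and -0.44 without wild type embryo 2 alone. Nqo1 with Gclm gave r = 0.81 (exact permutation p = 0.154, adjusted 0.578; rho = 0.60, p = 0.249), 0.04 without them and 0.42 without wild type embryo 2 alone. Neither relation passed, and both values came nearer to 0 without wild type embryos.

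**Figure D4:**
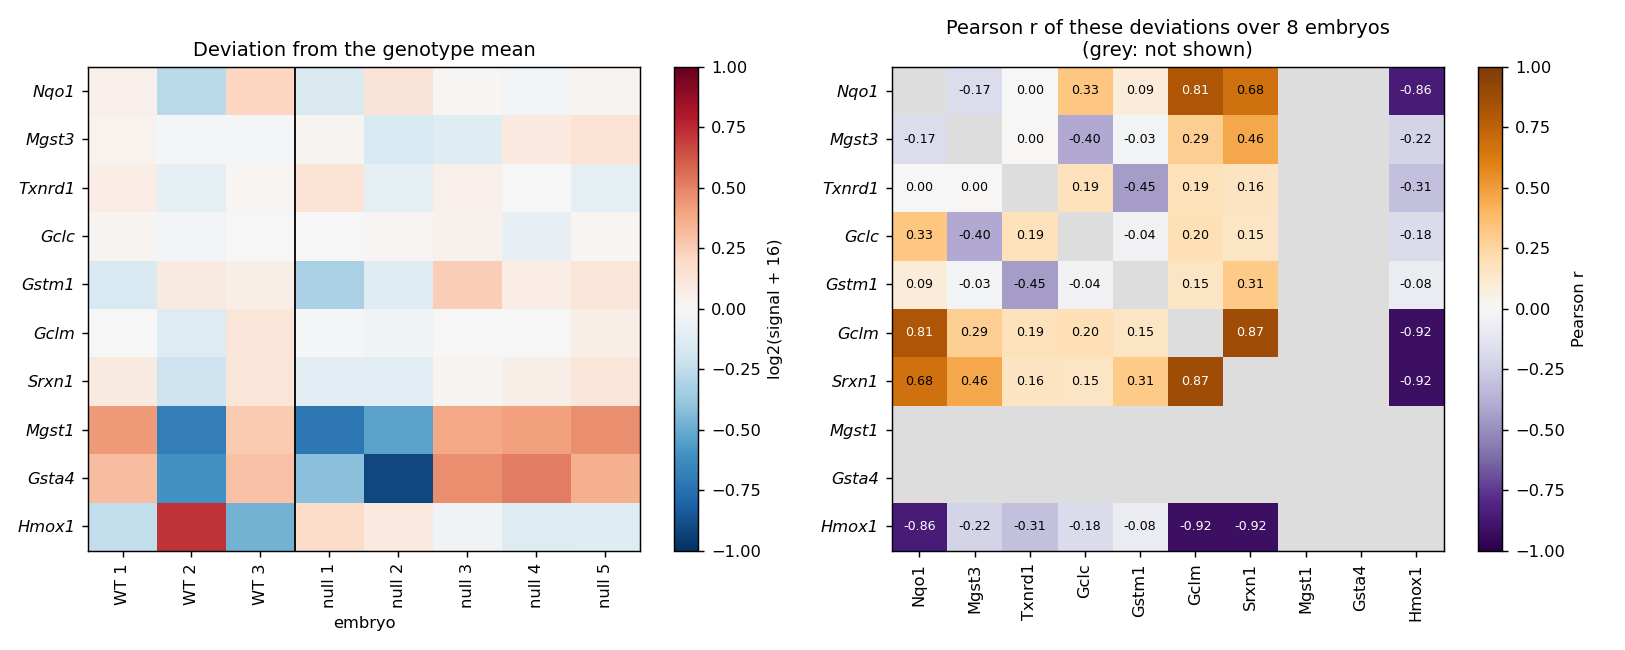
Left, deviation of each embryo from the mean of its genotype on the log2(signal + 16) scale; right, Pearson r of these deviations over 8 embryos, with pairs of Mgst1 and Gsta4 left grey because those genes fall into separate clusters of embryos. Hmox1 deviates against Srxn1 and Gclm (both r = -0.92), and Nqo1 with Mgst3 is at -0.17.

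The pair with the lowest p was Gclm with Srxn1 (r = 0.87, rho = 0.98, each with an exact permutation p = 0.00139, the smallest possible, adjusted 0.0625). Its r was 0.65 without wild type embryo 2 and 0.91 over the null embryos alone. Hmox1 deviated in the opposite direction to Srxn1 (r = -0.92, exact permutation p = 0.00556, adjusted 0.125; rho = -0.83, p = 0.0333) and to Gclm (r = -0.92, exact permutation p = 0.0167, adjusted 0.164; rho = -0.90, p = 0.0222). Without wild type embryo 2 these were -0.86 and -0.79, and over the null embryos alone -0.94 and -0.74. Wild type embryo 2 and null embryos 1 and 2 had the highest deviations of Hmox1 and the lowest of Srxn1 and Gclm. Both reduced sets keep null embryos 1 and 2, so they do not show the relations of Hmox1, Srxn1 and Gclm apart from that split. The remaining 5 of the 8 pairs involve Mgst1 or Gsta4, which fall into a cluster of 3 low embryos and one of 5 high embryos, too few in either for a correlation within it. In wild type embryo 2 the genes did not all deviate in the same direction: Hmox1 was high while Nqo1, Srxn1, Gclm, Mgst1 and Gsta4 were low. Null embryos 1 and 2 had the same directions for these genes, except that Nqo1 in null embryo 2 was above its genotype mean (0.13). This describes 3 embryos, and the pair test had too few embryos to decide whether the 10 genes deviate together.

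Among all genes, those whose deviations most resembled Nqo1 over the 8 embryos were Glul, Cavin1, Ppbp, Arhgef25 and Znrd1as (r = 0.99, 0.99, 0.99, 0.97 and 0.97). Of the set, Gclm came nearest, at rank 257 of 7435 genes, while Mgst3 stood at 4388 and Hmox1 at 7295. For Mgst3 the nearest were Lsg1, Faim, Scd1, Ankfy1 and Nup62 (r = 0.94, 0.93, 0.92, 0.92 and 0.92), with Nqo1 at rank 4888. These r values are descriptions over the same 8 embryos, picked as the highest of many.

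Of the pathway's regulators, Nfe2l2 itself gave 2102, 1679 and 1894 in wild type embryos and 1878, 1660, 1853, 1806 and 1843 in null embryos, with groups that overlapped and a difference of -0.06 (SE 0.08). Keap1, its inhibitor, was at 0.12 (SE 0.10), Bach1, the repressor, at -0.02 (SE 0.06) and Mafg, a small MAF partner, at -0.14 (SE 0.09). The lowest of the regulators was Nfe2l1, a relative of NRF2, named after its values were seen, at -0.28 (SE 0.09) with groups that overlapped. Of 10 listed regulators 9 were tested, 0 were called in either direction and 6 were below 0, with a median of -0.02. NRF2 is controlled mainly through its protein, which arrays do not measure.

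The wider pathway lists, including the genes of the set, had 0 genes called in either direction by limma. In the glutathione synthesis and recycling list 7 of 13 genes were tested, 4 were below 0 and the median was -0.02, with Gsr, the glutathione reductase, at -0.02 (SE 0.11). Without Gclc and Gclm 3 of 5 were below 0, with the same median. In the transferase list 11 of 28 were tested, 8 were below 0 and the median was -0.09; without Mgst1, Mgst3, Gsta4 and Gstm1 these were 4 of 7 and -0.0021. In the thioredoxin and peroxide list 22 of 27 were tested, 15 were below 0 and the median was -0.08, and without Txnrd1 and Srxn1 13 of 20 were below 0 with a median of -0.05. Prdx1 had no probe set of its own. The lowest value of the thioredoxin list, -0.94 (SE 0.51), belonged to Sod3, the extracellular superoxide dismutase, named after its values were seen, whose groups overlapped at embryo means of 5.23 to 187.

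Of the quinone, haem and iron targets 14 of 21 were tested, 11 were below 0 and the median was -0.08, and without Nqo1 and Hmox1 10 of 12 were below 0 with the same median. The genes for NADPH supply, which feeds these enzymes, had 7 of 8 tested, 2 below 0 and a median of 0.04, without G6pdx, which had no probe set of its own. All 3 metallothionein list genes were tested and below 0 (median -0.16), with Mt1, a metal-binding protein, at -0.09 (SE 0.16). Apart from Nqo1, Mgst3 and Txnrd1, genes of these lists whose null embryos all lay below the wild type embryos were Gstp1 (-0.11, SE 0.06) and Ptgr1 (-0.33, SE 0.09), named after their values were seen. With the genes of the set included, this held for 2 of 11 tested transferases, 1 of 22 thioredoxin and peroxide genes and 2 of 14 quinone, haem and iron targets. It held for 0 tested genes of the synthesis, NADPH and metallothionein lists, and for 3.71% of all genes tested.

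Slc7a11, which imports cystine for glutathione synthesis, lay below the signal filter and was not tested. Its signal was 66.9, 61.9 and 38.8 in wild type embryos and 80.7, 75.5, 86.4, 101 and 93.1 in null embryos. The null embryos all lay above the wild type ones, the reverse of Nqo1 and Mgst3, with a difference of 0.54. The mean signal of Slc7a11 stood at percentile 38.2, just below the filter, and no detection calls separate signal from background there.

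**Figure D5:**
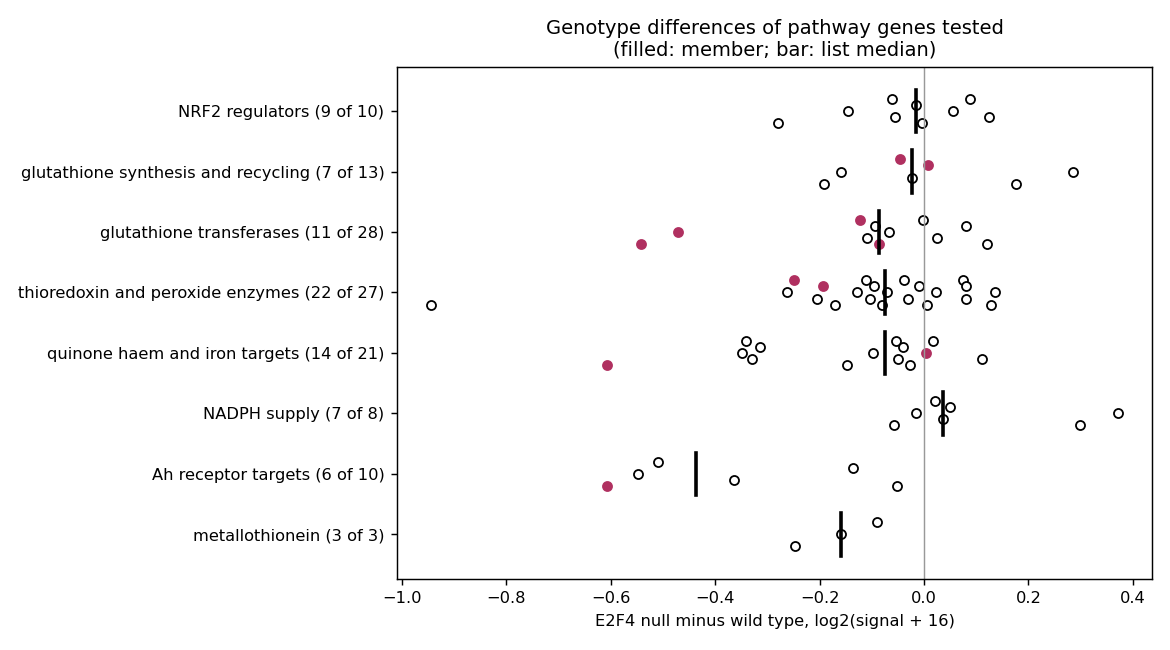
Null minus wild type difference on the log2(signal + 16) scale for the tested genes of the 8 pathway lists, 1 point per gene, with the list median marked. The Ah receptor list has its median at -0.44, and the other 7 lists have medians between -0.16 and 0.04.

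Nqo1 is also a target of the aryl hydrocarbon receptor, which binds xenobiotic response elements. All 6 of 10 listed genes that were tested had a difference below 0, with a median of -0.44, and -0.36 without Nqo1; 0 were called. Cyp1b1, a cytochrome P450 induced by this receptor, gave 2916, 3257 and 3057 in wild type embryos and 1828, 2972, 1972, 2043 and 2125 in null embryos. Only null embryo 2 reached into the wild type range, and the difference was -0.51 (SE 0.14). Ahr, the receptor, named after its values were seen, gave 1136, 541 and 1427 against 488, 684, 690, 748 and 670, with overlap through wild type embryo 2 and a difference of -0.55 (SE 0.28). The other tested genes of the list, also named after their values were seen, had standard errors larger than their differences: Ahrr -0.36 (SE 0.46), Tiparp -0.14 (SE 0.28) and Arnt -0.05 (SE 0.09). Cyp1a1 and Cyp1a2 lay below the filter.

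Since E2f4 and Nqo1 both lie on chromosome 8, the genes between them were examined. The RefSeq table of GRCm38.p6 has 61 protein-coding genes between them, of which 31 were tested. Their differences ran from -0.22 to 0.16 with a median of -0.02. In 1 of the 31, Ranbp10 (-0.22), all null embryos lay below all wild type embryos, and in 0 they lay above. Over all 7436 genes tested these shares were 3.71% and 2.95%, so the count among the 31 was near the background. Hmox1 is 235 genes away on the same chromosome. The labels give no strain of origin for the null allele, so a part of linked sequence in the Nqo1 difference cannot be told apart from genotype.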

How the data were processed

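Cultures were labelled as primary fibroblasts of wild type or E2F4 null embryos, with 1 array per culture, 20 in all; titles were taken to hold an embryo number followed by a culture number. The authors deposited linear signal intensities per probe set, and per the submitters' processing notes MAS5 was the software. The version, the scaling target and any detection calls were not given in the sources. The 2% trimmed mean was 500.2 on every array, so the arrays share a scale on which a change common to all genes is not visible. Of 22690 probe sets, 64 were controls, 20380 others had 1 gene symbol and 691 had several; 20351 of the 20380 were matched by gene identifier to RefSeq. No array pair was identical.

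Values were converted to log2(signal + 16), which understates the change of low genes, and averaged over the cultures of an embryo. The brightest probe set by mean stood for each gene, and genes below the 40th percentile of mean signal (83.2) were not tested, which left 7436 of 12393; all 10 genes passed. For the genotypes, embryo means were fitted in R 4.3.3 with limma 3.58.1 (lmFit, then eBayes with trend; two-sided). Embryos within a genotype were compared with limma's moderated F test over cultures, with all 8 embryos in 1 fit. Both were adjusted by Benjamini-Hochberg over all genes tested at 0.05. The genotype p-values set a mean difference against the spread between these embryos. Those of the F test set differences between embryos against the spread between their cultures. Anything that the cultures of 1 embryo shared is part of an embryo difference there. Pairs were tested by exact permutation. The fits were tested on simulated data.

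The genes and all lists were chosen with earlier results of these data known. Named genes were E2f4, the 10 genes with all their probe sets, Nfe2l2, Keap1, Bach1, Mafg, Gsr, Slc7a11, Prdx1, G6pdx, Cyp1b1 and Mt1, and the 5 genes most like Nqo1 and most like Mgst3; others are said to be named after their values were seen. Alternatives covered the pseudocount (4, 64), the filter, quantile normalization, median centring, every probe set, blocks, cultures 1 and 2 only, eBayes without trend, fits on 1 genotype and each embryo left out; the fit without the 3 embryos with the highest muscle markers was added after the data were seen.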

Additional observations from a re-analysis of the deposited data

How the results depend on the processing

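The differences of Nqo1, Mgst3, Txnrd1, Srxn1, Mgst1 and Gclc stayed below 0 in all 21 alternatives, with Nqo1 between -0.74 and -0.50 and Mgst3 between -0.62 and -0.49. For Nqo1, Mgst3 and Txnrd1, whose groups did not overlap, leaving out an embryo could not change the sign. All alternatives follow the brightest probe set of a gene, and the second Gclc probe set was at 0.15. Differences of Hmox1, Gclm, Gsta4 and Gstm1 lay on both sides of 0. The median of the 10 genes ran from -0.29 to -0.11 when each embryo was left out, the lowest without wild type embryo 2. The genotype comparison called 1 gene; with each embryo left out it called 0 to 11, the 11 without wild type embryo 2 and with Nqo1 among them. It called 0 genes with every probe set and 0 with cultures 1 and 2 only (1078 and 697 at an unadjusted p under 0.05 by limma). A random block for the embryo, fitted over cultures and not embryo means, gave 80 calls among 7436 genes, Nqo1 and Mgst3 included. Without the 3 embryos with the highest muscle markers it called 84, Nqo1 included; the cause was not tested. With the embryo number as a replicate block it called 0 (648 unadjusted). With the culture number as a replicate block together with a random block for the embryo it called 38. The 10 genes were selected on this contrast, so calls of Nqo1 or Mgst3 in these fits carry no weight as a result. The labels link same-numbered embryos by nothing but the number. Deviations of same-numbered embryos correlated across genes at 0.086, 0.639 and 0.423 for numbers 1, 2 and 3. Whether such embryos share a further factor was not tested.

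Of the 10 genes, those passing between wild type embryos numbered 1 to 6 with an embryo left out (16.6% to 52.3% of all genes), against 6, and 1 without the 3 muscle-high embryos (16.7%). Between null embryos they numbered 2 to 5 (17.8% to 28.3%), against 4, and 0 without those 3 (1.75%). With the culture number as a replicate block 5 (46.6%) and 4 (23.9%) passed, and in fits on 1 genotype 6 (50.1%) and 3 (22.9%). The pair test gave 0 adjusted calls in its 15 alternatives, which says nothing about stability, since so few embryos could hardly give a call. The main limits are 3 and 5 embryos, and no detection calls to separate signal from background for dim probe sets.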
